A study of Homo sapiens with 26 samples.

Results

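The genes described here are 10 members of the metalloprotease system: the matrix metalloproteases MMP2, MMP7, MMP9, MMP12, MMP14 and MMP19, the membrane-bound metalloprotease ADAM8, and the tissue inhibitors of metalloproteases TIMP1, TIMP2 and TIMP3. They were taken by symbol, 10 of 22662 genes named in 3 deposited count tables. The list was chosen with earlier results of these data known. Counts of members beside the share over all genes are therefore descriptions and not a test of the list. All 10 had a row in both macrophage tables and 9 of 10 in the cardiomyocyte table, and MMP7 was not analysed in cardiomyocytes. RNA came from 26 samples in 8 groups, all of wild-type cells derived from human embryonic stem cell (hESC) lines, either in Biowires (engineered cardiac microtissues) or as digested control cells. Macrophages (MF, line hES2) were sorted on day 14 from Biowires made of cardiomyocytes, FB cells and macrophages (CM+FB+MF), of FB+MF, or of MF alone, with n = 3 libraries each. The abbreviation FB is not written out in the labels and is taken as fibroblasts. Control macrophages of that line, in the same 3 makeups with n = 3 libraries each, were digested for 40 min and carry no culture day in the labels. Cardiomyocytes (line ESI17) were sorted on day 3 from CM+FB+MF and CM+FB Biowires, with n = 4 each. Every group had passed through the same enzyme digestion with flavopiridol, an inhibitor of transcription, and a sort on CD14 and CD45. No label says that the replicates come from separate cultures, and the p-values then cover only the variation among these libraries, part of which may be technical.

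Matrix metalloproteases are zinc enzymes that are made as inactive precursors and cut collagens, elastin, proteoglycans and many cell surface proteins. TIMPs bind the active site of these enzymes and block it, and TIMP2 also takes part with MMP14 in the activation of MMP2 at the cell surface. In tissue, macrophages are a main source of MMP12 (macrophage elastase) and of MMP9, while fibroblasts are a main source of MMP2, and remodelling of the cardiac matrix involves several members of the family.

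Promoter sequences are shown for the member found in a single macrophage group (MMP7), the member with the largest rise in CM+FB+MF Biowires (ADAM8) and the member with the largest fall in Biowire against digested macrophages (TIMP3). RefSeq promoter windows on GRCh38.p14, 250 bases before to 50 after the gene start, were available for 5 of the 10 members (MMP7, MMP14, TIMP1, TIMP3 and ADAM8). Capitals mark matches on either strand to 5 motifs, none of which overlap another in these windows. An AP-1 motif was searched as TGAGTCA, found in 4.95% of 35116 promoter windows of the same length. A core of the TCF/LEF factors, searched as CTTTGA, was found in 12.9% of them. The letters of the TATA box, TATAAA, were found in 11.5% of windows. For the GC box, GGGCGG, the share was 45.0%, and for the core of HIF sites, ACGTG, it was 21.4%. A match is a description of the sequence only.
MMP7, chr11:102530698-102530997, minus strand: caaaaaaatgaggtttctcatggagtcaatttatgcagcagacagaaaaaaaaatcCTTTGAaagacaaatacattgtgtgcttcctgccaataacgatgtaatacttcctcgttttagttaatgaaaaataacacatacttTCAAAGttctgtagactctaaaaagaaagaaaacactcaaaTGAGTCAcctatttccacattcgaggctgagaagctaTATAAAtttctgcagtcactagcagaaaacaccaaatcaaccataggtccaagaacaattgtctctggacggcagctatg
ADAM8, chr10:133276819-133277118, minus strand: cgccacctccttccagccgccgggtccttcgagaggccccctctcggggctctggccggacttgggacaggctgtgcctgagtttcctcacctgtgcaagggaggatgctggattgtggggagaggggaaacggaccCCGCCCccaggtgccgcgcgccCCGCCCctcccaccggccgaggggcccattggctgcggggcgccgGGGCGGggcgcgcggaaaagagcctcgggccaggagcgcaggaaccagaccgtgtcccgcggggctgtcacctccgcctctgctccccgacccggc
TIMP3, chr22:32801455-32801754, plus strand: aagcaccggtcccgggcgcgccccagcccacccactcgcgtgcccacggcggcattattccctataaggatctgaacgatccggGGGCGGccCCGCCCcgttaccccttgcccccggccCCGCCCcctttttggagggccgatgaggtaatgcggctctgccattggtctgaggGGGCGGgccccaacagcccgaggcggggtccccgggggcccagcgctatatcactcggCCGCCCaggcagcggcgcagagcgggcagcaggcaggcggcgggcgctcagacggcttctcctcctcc
The MMP7 window held the AP-1 motif 67 bases before the start, a TATA box 30 bases before it and 2 TCF/LEF cores, and it held no GC box. The windows of ADAM8 and TIMP3 held 3 and 5 GC boxes and none of the other 4 motifs.

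Among Biowire macrophages, library totals ran from 6983800 to 8041669 counts for CM+FB+MF, from 10668086 to 12426918 for FB+MF and from 8265064 to 13665322 for MF. They were 10132651 to 12717157 over the digested macrophages and 12604684 to 30936910 in cardiomyocytes. Levels are given as counts scaled to the library total (CPM). Fold changes are on the log2 scale ± SE and come from edgeR's quasi-likelihood fit, where a call is an adjusted p under 0.05 over all genes. All 12 macrophage markers were detected in each of the 6 macrophage groups, with a summed level of 8984 to 13180 CPM per library, against 6.15 to 48.95 CPM in cardiomyocytes. The 15 cardiomyocyte markers summed to between 1233 and 2922 CPM in macrophages of CM+FB+MF Biowires and to 237 to 428 CPM in digested CM+FB+MF macrophages, against 24.2 to 78.8 CPM in the other 4 macrophage groups. In those 4 groups 6 or 7 of the 15 markers were at 0 counts, among them TNNI3, TNNC1, MYL2, MYL3 and RYR2. In Biowire macrophages the 14 fibroblast markers summed to 346 to 432 CPM for CM+FB+MF, 571 to 659 CPM for FB+MF and 425 to 529 CPM for MF. In digested macrophages they summed to 940 to 3372 CPM in CM+FB+MF, 1052 to 1741 CPM in FB+MF and 266 to 290 CPM in MF, where DCN, LUM, POSTN, THY1 and FBLN1 were at 0 counts. Markers of other blood cells summed to at most 5.01 CPM in any library. In sorted bulk RNA, fewer cells of a type and less RNA per cell cannot be told apart.

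**Figure D1:**
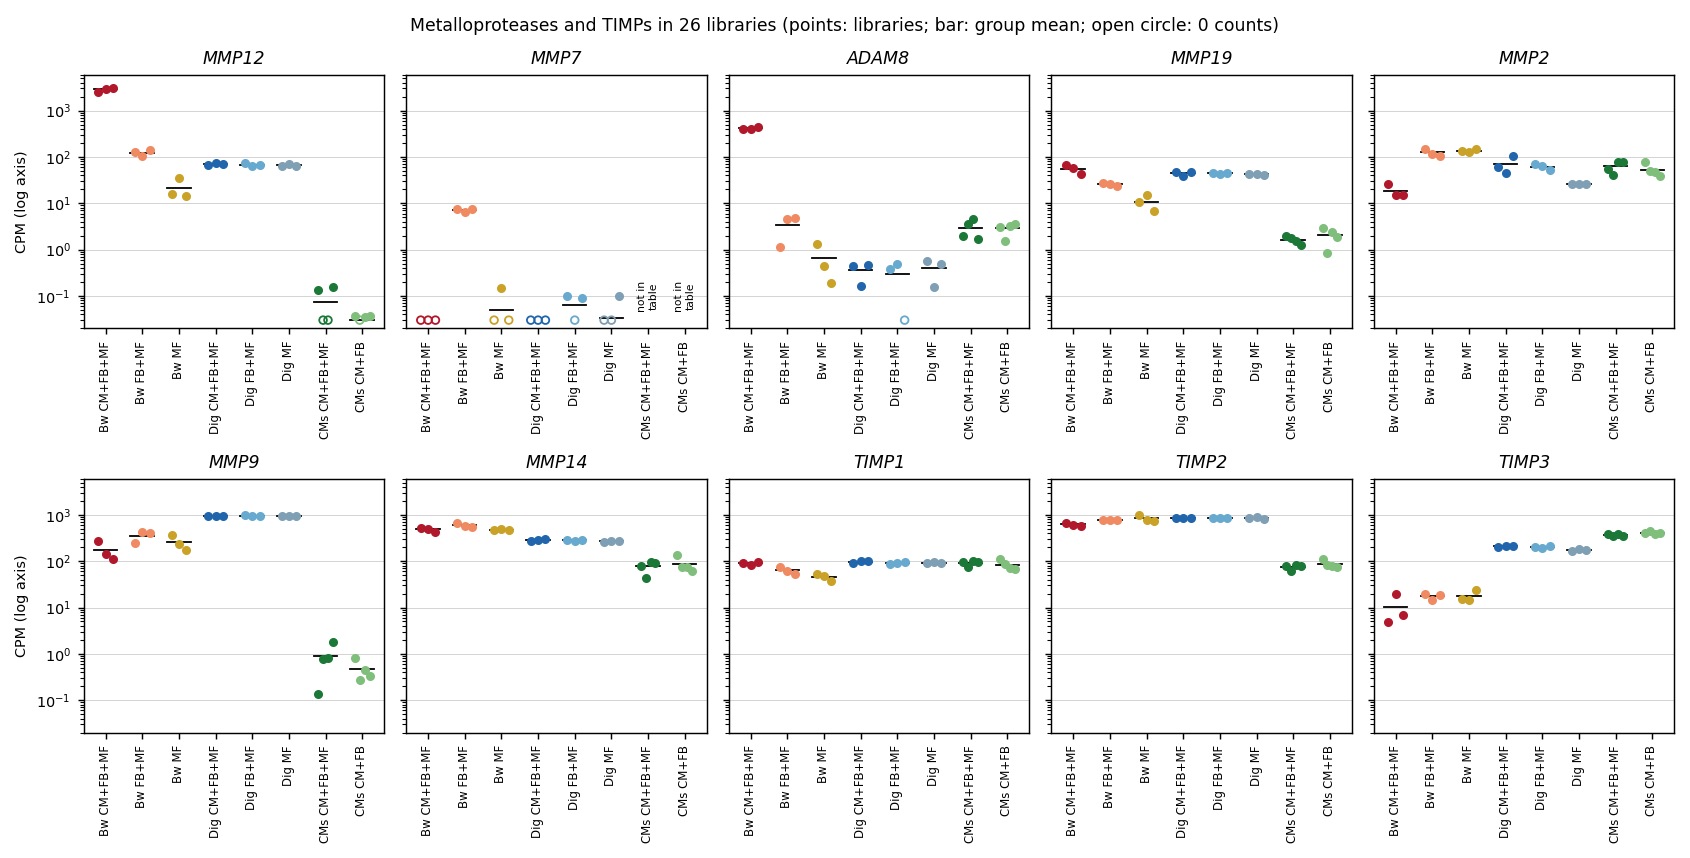
CPM of the 10 genes on a log axis in each library, by group (Bw, Biowire macrophages; Dig, digested macrophages; CMs, cardiomyocytes), with bars at the group mean and open circles for libraries with 0 counts. MMP12 and ADAM8 stand apart in the 3 Biowire CM+FB+MF macrophage libraries, at 2558 to 3135 and 392 to 444 CPM, and MMP7 in the 3 Biowire FB+MF libraries, at 6.56 to 7.56 CPM.

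In Biowire macrophages most of these genes were called in some comparison of tissue makeups, though several calls depended on single libraries. Macrophages from CM+FB+MF Biowires had more MMP12, ADAM8, MMP19 and TIMP1 and less MMP2 and TIMP2 than macrophages from MF Biowires, 4 higher and 2 lower of 9 tested. MMP7 is described by its counts and not counted here, since it passed the filter on low counts only through the group where it was high. ADAM8 passed that filter through CM+FB+MF and FB+MF alone, the groups where it was higher than in MF. It is included in the counts, but its p-values against MF are descriptive only. Of all 13952 genes tested, 37.6% passed the same threshold, 17.8% higher and 19.8% lower. Against FB+MF Biowires, MMP12, ADAM8, MMP19 and TIMP1 were higher and MMP2, MMP9 and MMP14 were lower in CM+FB+MF, 4 higher and 3 lower of 9 beside 35.5% of all genes (16.4% higher, 19.1% lower). In FB+MF against MF Biowires, MMP12, MMP19 and ADAM8 were higher and none of the 9 was lower. With ADAM8 included this was 3 of 9, beside 6.16% of all genes (4.03% higher, 2.14% lower). Over the 9 members other than MMP7 the median log2 fold change was 0.0095 in CM+FB+MF against MF, -0.33 in CM+FB+MF against FB+MF and 0.45 in FB+MF against MF, with 0.0024, -0.0020 and -0.0074 over all genes. The 3 comparisons share libraries in pairs and are not independent of each other.

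In digested macrophages the same makeups gave few differences. MMP2 and TIMP3 were higher in CM+FB+MF than in MF, 2 of 8 tested beside 2.69% of 12960 genes, all of them higher. MMP2 alone was higher in FB+MF than in MF, 1 of 8 beside 1.60%, again all higher. No member passed between CM+FB+MF and FB+MF, 0 of 8 beside 0.239%, with 0 genes lower. At an unadjusted p of 0.05 that last comparison held 321 genes, and edgeR and DESeq2 called 31 and 49. MMP7 and ADAM8 were under the filter on low counts in these libraries and were not tested.

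**Figure D2:**
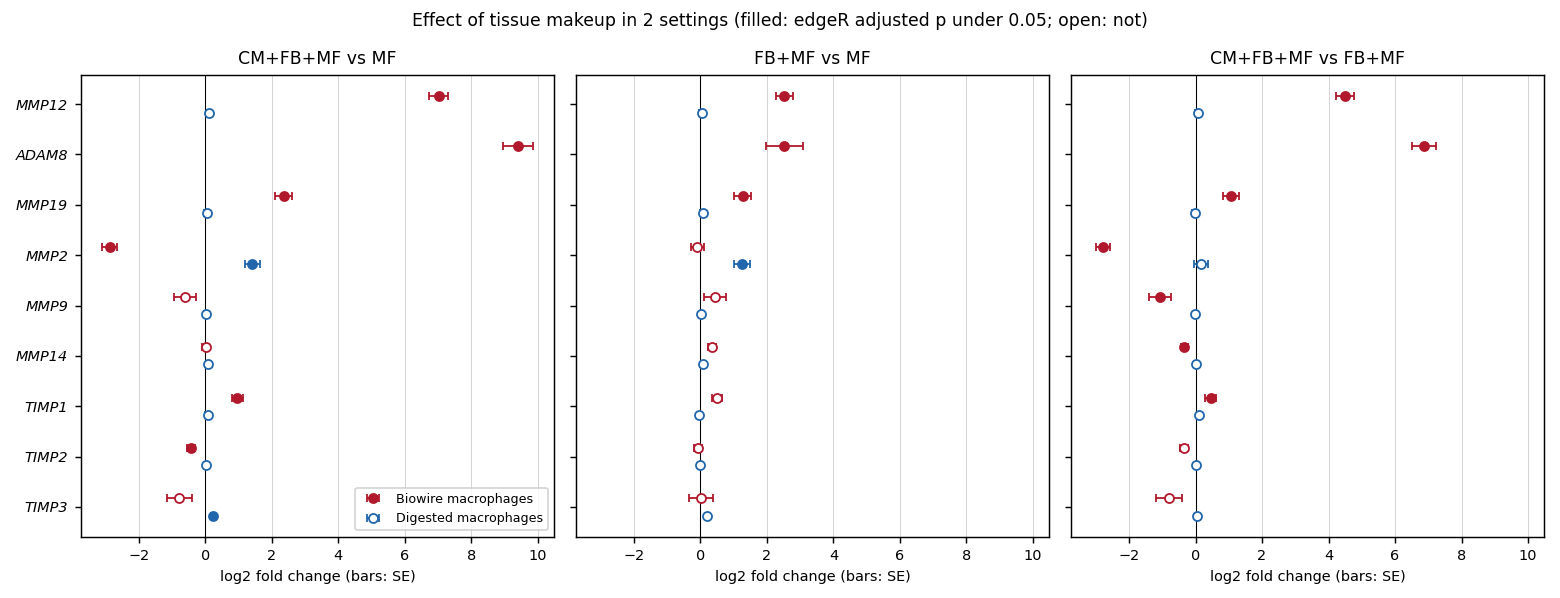
Log2 fold changes ± SE (horizontal axis) of 9 members in 3 comparisons of tissue makeup, in Biowire (red) and digested (blue) macrophages, filled where the edgeR adjusted p was under 0.05. For ADAM8 against MF the p-values are descriptive only. MMP12 reached 7.02 and MMP2 -2.88 in Biowire CM+FB+MF against MF, against 0.11 and 1.42 in digested macrophages, ADAM8 was not tested in digested libraries, and MMP7 is not drawn because libraries at 0 give no usable fold change.

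MMP12, the macrophage elastase, was the member with the highest level in Biowire CM+FB+MF macrophages. It had 2558, 2884 and 3135 CPM in Biowire CM+FB+MF macrophages, 127, 105 and 139 CPM in Biowire FB+MF and 16.1, 34.4 and 14.7 CPM in Biowire MF macrophages. The 3 groups were in separate ranges, with CM+FB+MF highest and MF lowest. CM+FB+MF exceeded MF by 7.02 ± 0.30 on the log2 scale (edgeR adjusted p = 1.68e-09), a 132-fold difference in mean CPM, and FB+MF by 4.49 ± 0.26 (adjusted p = 5.81e-08). FB+MF in turn exceeded MF by 2.53 ± 0.25 (adjusted p = 3.27e-05). All 3 calls held under each alternative fit and without any 1 library, with log2 differences of 6.78 to 7.53, 4.37 to 4.56 and 2.29 to 3.03 when libraries were left out.

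In digested macrophages MMP12 did not follow the makeup. It had 67.3, 73.7 and 70.6 CPM in CM+FB+MF, 72.7, 63.5 and 67.1 CPM in FB+MF and 63.3, 69.0 and 64.0 CPM in MF, and these ranges overlapped. The digested level lay above that of Biowire MF macrophages and below that of the other 2 Biowire groups. In cardiomyocytes MMP12 had 4, 0, 0 and 2 counts in CM+FB+MF and 1, 0, 1 and 1 counts in CM+FB, where macrophage markers summed to 23.2 to 48.95 and 6.15 to 8.23 CPM. The cardiomyocyte markers that came with the Biowire CM+FB+MF macrophages were 0.906%, 2.15% and 1.52% of their level in CM+FB+MF cardiomyocytes, in replicates 1, 2 and 3.

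MMP7 (matrilysin), a small enzyme that lacks the hemopexin domain of most other members, was detected above the floor in Biowire FB+MF macrophages only among the 6 macrophage groups. Its counts were 94, 70 and 82 there (7.56, 6.56 and 7.40 CPM). The other libraries had 0, 0 and 0 counts in Biowire CM+FB+MF, 0, 2 and 0 in Biowire MF, 0, 0 and 0 in digested CM+FB+MF, 1, 0 and 1 in digested FB+MF and 0, 0 and 1 in digested MF. It passed the filter on low counts through the Biowire FB+MF group alone, so no test of it is given. The pooled level in Biowire FB+MF was 116-fold that in Biowire MF, with a 95% counting interval of 31.8 to 963. It was at least 53.9-fold lower in CM+FB+MF than in FB+MF Biowires, with the floor set at 3 counts for the pooled libraries, and 113-fold higher in Biowire than in digested FB+MF macrophages (interval 30.97 to 939). The intervals and floor cover counting error only. MMP7 was highest in FB+MF and MMP12 in CM+FB+MF among the Biowire groups.

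ADAM8, a membrane-bound sheddase of leukocytes, was high in 1 group. It had 404, 392 and 444 CPM in Biowire CM+FB+MF macrophages, 1.13, 4.59 and 4.69 CPM in Biowire FB+MF and 1.33, 0.439 and 0.194 CPM in Biowire MF macrophages. The CM+FB+MF libraries lay far above all others, while FB+MF replicate 1 fell below MF replicate 1. CM+FB+MF exceeded MF by 9.40 ± 0.44 (edgeR adjusted p = 3.62e-09), or 8.98 to 10.24 when libraries were left out. It exceeded FB+MF by 6.88 ± 0.36 (adjusted p = 2.18e-08). FB+MF exceeded MF by 2.52 ± 0.55 (adjusted p = 0.0141), a call that was lost with only the compared groups in the fit (adjusted p = 0.112) and in 4 of 6 fits that left out 1 library. The fits that lost it left out FB+MF replicate 2 or 3 (adjusted p = 0.0614 and 0.0608), or else MF replicate 2 or 3 (adjusted p = 0.0740 and 0.0676). The FB+MF against MF difference was 2.10 to 3.38 when libraries were left out. Since ADAM8 passed the filter on low counts only through CM+FB+MF and FB+MF, its p-values against MF are descriptive only. Digested macrophages had 0 to 0.560 CPM in their 9 libraries. In cardiomyocytes ADAM8 had 1.98, 3.63, 4.49 and 1.67 CPM in CM+FB+MF and 3.06, 1.56, 3.25 and 3.63 CPM in CM+FB, overlapping ranges.

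MMP19, a secreted protease that cuts basement membrane components, had 65.7, 57.2 and 42.7 CPM in Biowire CM+FB+MF, 26.96, 25.5 and 24.1 CPM in Biowire FB+MF and 10.4, 14.9 and 6.70 CPM in Biowire MF macrophages. The groups did not overlap and had the same order as for MMP12. The log2 differences were 2.35 ± 0.25 for CM+FB+MF against MF (edgeR adjusted p = 7.56e-06), 1.08 ± 0.24 for CM+FB+MF against FB+MF (adjusted p = 0.00334) and 1.27 ± 0.25 for FB+MF against MF (adjusted p = 0.00708). In digested macrophages it was at 38.5 to 46.98 CPM in all 9 libraries, with no difference called between makeups.

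MMP2 (gelatinase A), which cuts denatured collagen and basement membrane collagen, was lowest in the Biowire group in which MMP12 was highest. It had 25.7, 14.8 and 15.03 CPM in CM+FB+MF Biowires, against 151, 116 and 107 CPM in Biowire FB+MF and 133, 125 and 151 CPM in Biowire MF macrophages. The CM+FB+MF libraries lay below all of the others, and the FB+MF and MF ranges overlapped. CM+FB+MF was lower than MF on the log2 scale, at -2.88 ± 0.21 (edgeR adjusted p = 2.02e-07) and lower than FB+MF by -2.79 ± 0.21 (adjusted p = 5.18e-07). In digested macrophages the order was different: MMP2 had 61.9, 44.7 and 102 CPM in CM+FB+MF and 68.8, 63.6 and 53.0 CPM in FB+MF, against 25.7, 25.6 and 26.3 CPM in MF. Both mixed makeups exceeded MF, by 1.42 ± 0.23 (adjusted p = 0.00361) and 1.25 ± 0.23 (adjusted p = 0.0146). The fibroblast marker sum was 7.04-fold higher in CM+FB+MF and 5.16-fold higher in FB+MF than in MF, and the first ratio was 4.48 without CM+FB+MF replicate 3. The FB+MF call was lost in 5 of 6 fits without 1 library, with the lowest adjusted p at 0.0612 (FB+MF replicate 2 left out) and the highest at 0.0980 (MF replicate 2 left out), and it held with FB+MF replicate 3 left out. In GENCODE a gene on the same strand, AC007336.3, overlaps exons of MMP2, so its counts are uncertain to that extent.

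Fibroblast markers moved with MMP2 between libraries. Ordering the libraries of a group by MMP2 gave the same order as the summed 14 fibroblast markers in 7 of 8 groups, all but digested MF, and in 6 of 8 groups once SPARC was left out of the sum. Among the other members with a mean above 3 counts per library in all 8 groups, the orders matched in 4 groups for MMP14, 3 for TIMP1, 2 each for TIMP2 and TIMP3, 1 for MMP19 and 0 for MMP9. ADAM8 and MMP12 were above that level in 7 and 6 groups, and their orders matched in 1 group each. In digested CM+FB+MF the markers summed to 1544, 940 and 3372 CPM in replicates 1, 2 and 3, where MMP2 had 61.9, 44.7 and 102 CPM. In Biowire macrophages SPARC made up 24.5% of the sum in CM+FB+MF, 51.8% in FB+MF and 76.4% in MF. Without it the other 13 markers summed to 259 to 313 CPM in CM+FB+MF, 272 to 331 CPM in FB+MF and 67.5 to 193 CPM in MF macrophages. This pattern was seen in the values first, and the part of fibroblast RNA in the MMP2 differences was not tested.

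**Figure D3:**
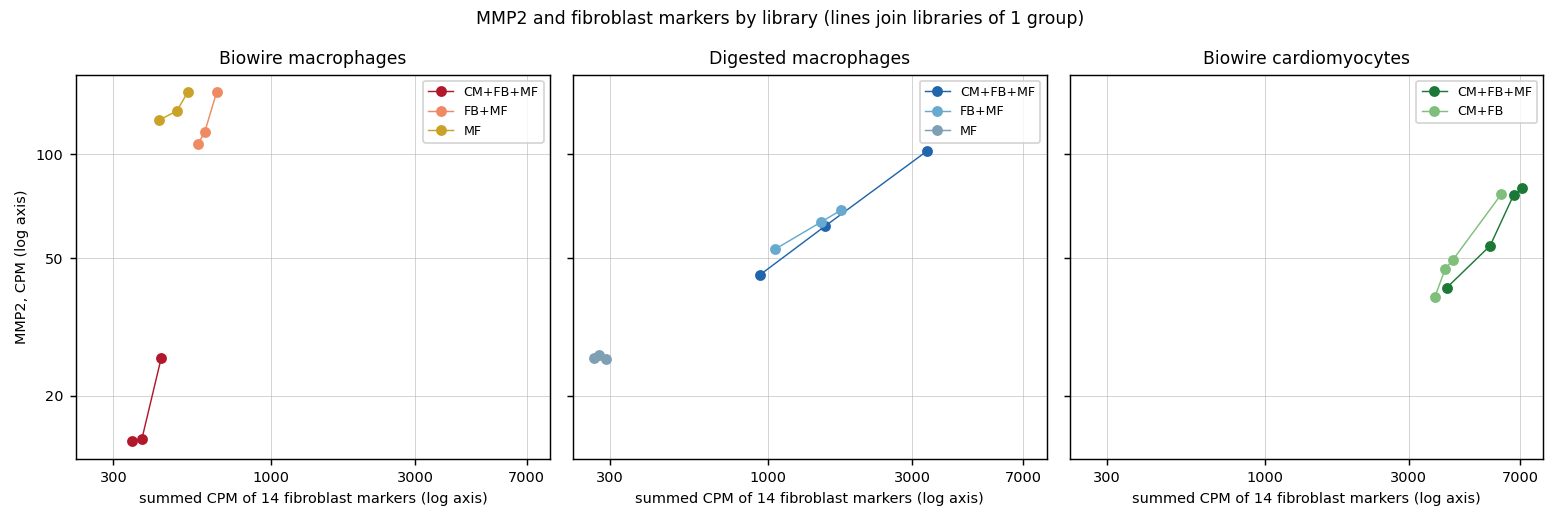
MMP2 in CPM (vertical, log axis) against the summed CPM of 14 fibroblast markers (horizontal, log axis) in each library, with lines joining the libraries of 1 group. Points climb together within 7 of the 8 groups, while Biowire MF and FB+MF macrophages sit at 107 to 151 CPM of MMP2 with marker sums of 425 to 659 CPM and Biowire CM+FB+MF macrophages at 14.8 to 25.7 CPM with sums of 346 to 432 CPM.

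MMP9 (gelatinase B), the inducible gelatinase of myeloid cells, varied widely between Biowire libraries. It had 269, 143 and 109 CPM in Biowire CM+FB+MF, 244, 418 and 405 CPM in Biowire FB+MF and 374, 240 and 177 CPM in Biowire MF macrophages, and all 3 ranges overlapped. CM+FB+MF was lower than FB+MF on the log2 scale, at -1.06 ± 0.33 (edgeR adjusted p = 0.0243), but not with DESeq2 (adjusted p = 0.0953). It was also lost in 4 of 6 fits without 1 library, with adjusted p of 0.101 and 0.120 without CM+FB+MF replicate 2 or 3 and 0.0830 and 0.0740 without FB+MF replicate 2 or 3. Against MF the difference of -0.61 ± 0.33 was not called (adjusted p = 0.167), but without CM+FB+MF replicate 1 it was -1.10 (adjusted p = 0.0140). In contrast, MMP9 was at 928 to 977 CPM in all 9 digested libraries. An antisense gene, SLC12A5-AS1, overlaps its exons in GENCODE, and reads of the pair cannot be told apart, since no source used here gives the strand setting of the counts.

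MMP14 (MT1-MMP), a membrane-anchored collagenase, had 519, 503 and 430 CPM in Biowire CM+FB+MF, 654, 570 and 559 CPM in Biowire FB+MF and 483, 495 and 461 CPM in Biowire MF macrophages. The CM+FB+MF and MF libraries overlapped and FB+MF lay above both. The fall in CM+FB+MF against FB+MF of -0.33 ± 0.11 passed narrowly (edgeR adjusted p = 0.0330), and not with RLE size factors (adjusted p = 0.0560) or without CM+FB+MF replicate 2 or 3 or FB+MF replicate 1 or 2 (adjusted p = 0.0637, 0.179, 0.163 and 0.0547). FB+MF against MF gave 0.34 ± 0.11, which was not called (adjusted p = 0.0993), while DESeq2 called it (adjusted p = 0.0462).

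Of the inhibitors, TIMP1, a broad secreted inhibitor that binds the precursor of MMP9, had 90.4, 83.1 and 94.6 CPM in Biowire CM+FB+MF, 74.6, 62.7 and 52.2 CPM in Biowire FB+MF and 52.0, 48.1 and 37.2 CPM in Biowire MF macrophages. The 3 groups did not overlap. CM+FB+MF exceeded MF by 0.96 ± 0.16 (edgeR adjusted p = 0.000449) and FB+MF by 0.46 ± 0.16 (adjusted p = 0.0415). The second call was lost in 5 of 6 fits without 1 library, with adjusted p of 0.0627 to 0.177, and held without FB+MF replicate 1. FB+MF against MF gave 0.50 ± 0.16 (adjusted p = 0.102), and it passed at 0.51 without the filter on low counts (adjusted p = 0.0462) and at 0.64 without MF replicate 1 (adjusted p = 0.0412).

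TIMP2 had 682, 615 and 584 CPM in Biowire CM+FB+MF, 767, 783 and 782 CPM in Biowire FB+MF and 994, 774 and 743 CPM in Biowire MF macrophages. The CM+FB+MF libraries were below all others, and FB+MF lay within the range of MF. CM+FB+MF was lower than MF on the log2 scale, at -0.43 ± 0.13 (edgeR adjusted p = 0.0190), a call lost without CM+FB+MF replicate 2 or 3 or MF replicate 1 (adjusted p = 0.0691, 0.104 and 0.0831). Without MF replicate 1, the library at 994 CPM, the difference was -0.25. Against FB+MF it was -0.35 ± 0.13 (adjusted p = 0.0516), not called, though it passed without the filter, with DESeq2 and with the compared groups alone (adjusted p between 0.0144 and 0.0483), and also without CM+FB+MF replicate 1 (adjusted p = 0.0337). An antisense gene, AC022966.1, overlaps TIMP2 in GENCODE, with the same limit as for MMP9.

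TIMP3, the inhibitor that binds to the extracellular matrix and also blocks several ADAM enzymes, was low in all Biowire macrophages. It had 4.85, 19.4 and 6.87 CPM in Biowire CM+FB+MF, 19.3, 14.5 and 18.8 CPM in Biowire FB+MF and 15.4, 14.8 and 23.6 CPM in Biowire MF macrophages. In CM+FB+MF 2 libraries lay below all others and replicate 2 lay among them. With all libraries no difference was called, at -0.78 ± 0.39 against MF (edgeR adjusted p = 0.129) and -0.79 ± 0.38 against FB+MF (adjusted p = 0.127). Without CM+FB+MF replicate 2 the same differences were -1.62 (adjusted p = 0.000991) and -1.63 (adjusted p = 0.00121), so this 1 library decided both. That library also had the highest cardiomyocyte marker sum, 2922 CPM against 1233 and 2066 CPM in the other two, and TIMP3 averaged 367 ± 22.6 CPM in CM+FB+MF cardiomyocytes (SD, n = 4). The part of cardiomyocyte RNA in its TIMP3 was not tested.

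Digested macrophages had much more TIMP3, with 202, 210 and 216 CPM in CM+FB+MF, 208, 194 and 208 CPM in FB+MF and 168, 183 and 179 CPM in MF. CM+FB+MF exceeded MF by 0.24 ± 0.06 with groups that did not overlap (edgeR adjusted p = 0.0490). In the same comparison fibroblast markers were 7.04-fold and cardiomyocyte markers 9.07-fold higher, and their part in the TIMP3 difference was not tested. The call was lost with RLE size factors, without the filter and with the compared groups alone (adjusted p between 0.0502 and 0.185) and in 5 of 6 fits without 1 library (adjusted p between 0.0666 and 0.246), holding with DESeq2 and without CM+FB+MF replicate 1.

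Scaled to exon length as well as to the library total (RPKM), the order of the members changed with the group. MMP12 was highest in Biowire CM+FB+MF macrophages at 1526 RPKM, followed by TIMP2 at 154, MMP14 at 130 and ADAM8 at 126 RPKM. In Biowire FB+MF macrophages TIMP2, MMP14 and MMP9 led at 191, 159 and 152 RPKM, and in Biowire MF macrophages the same 3 led at 205, 128 and 113 RPKM. MMP9 led in digested macrophages at 402 to 410 RPKM, with TIMP2 second at 210 to 214 RPKM. In cardiomyocytes TIMP3 and TIMP1 led, at 79.8 and 63.4 RPKM in CM+FB+MF and 89.9 and 57.8 RPKM in CM+FB.

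Biowire macrophages were then set against digested macrophages of the same makeup. The setting and the count table change together between them and cannot be told apart. Culture time may change with them, since the digested cells carry no culture day in the labels. In CM+FB+MF, MMP12, MMP14 and ADAM8 were higher and MMP2, MMP9, TIMP2 and TIMP3 lower in Biowires, 7 of 9 beside 50.5% of 14381 genes (24.4% higher, 26.1% lower). In FB+MF all 9 tested members passed, with MMP2, MMP12, MMP14 and ADAM8 higher and MMP9, MMP19, TIMP1, TIMP2 and TIMP3 lower, beside 47.1% of all genes (23.1% higher, 24.0% lower). In MF, MMP2 and MMP14 were higher and MMP9, MMP12, MMP19, TIMP1 and TIMP3 lower, 7 of 9 beside 46.0% (23.2% higher, 22.8% lower). ADAM8 passed the filter on low counts only through Biowire CM+FB+MF and FB+MF, where it was high. It is included in these counts, but its p-values against digested macrophages are descriptive only.

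TIMP3, MMP9 and MMP14 were called in the same direction in all 3 makeups. TIMP1, TIMP2 and ADAM8 also kept their sign with all libraries, but were not called in every makeup. TIMP3 was lower in Biowires by log2 fold changes of -4.50 ± 0.28, -3.68 ± 0.26 and -3.50 ± 0.26 in CM+FB+MF, FB+MF and MF (edgeR adjusted p = 9.43e-11, 6.05e-10 and 1.21e-09). MMP9 was lower by -2.62 ± 0.29, -1.58 ± 0.28 and -2.01 ± 0.28 in the same order (adjusted p = 3.15e-07, 9.64e-05 and 7.09e-06), and MMP14 was higher by 0.57 ± 0.09, 0.91 ± 0.09 and 0.64 ± 0.09 (adjusted p = 3.47e-05, 9.49e-08 and 8.87e-06). MMP12 changed direction with the makeup, at 5.15 ± 0.22 in CM+FB+MF (adjusted p = 3.40e-13), 0.72 ± 0.19 in FB+MF (adjusted p = 0.00413) and -1.76 ± 0.20 in MF (adjusted p = 5.91e-07). MMP2 did so in the opposite sense, at -2.08 ± 0.25, 0.86 ± 0.22 and 2.20 ± 0.24 (adjusted p = 8.30e-07, 0.00333 and 1.96e-07). ADAM8 was higher by 9.96 ± 0.40 in CM+FB+MF (adjusted p = 2.02e-13) and 3.37 ± 0.63 in FB+MF (adjusted p = 0.000191). The FB+MF difference was 2.77 to 3.93 when libraries were left out, and MF was not called (0.40 ± 0.84, adjusted p = 0.726). The TIMP2 call in FB+MF (-0.30 ± 0.11, adjusted p = 0.0271) was lost without each of the 6 libraries in turn, at adjusted p of 0.0530 to 0.0657. Ratios of mean CPM, without TMM scaling, were higher than these fold changes give. They were 1.69, 2.08 and 1.79 for MMP14 in CM+FB+MF, FB+MF and MF, and 0.903 for TIMP2 in FB+MF.

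A difference in the effect of the makeup between Biowires and digested cells was tested directly, as the Biowire minus the digested log2 fold change. For CM+FB+MF against MF, 7 of 9 members passed beside 31.2% of all genes (14.4% with a positive and 16.8% with a negative difference). For CM+FB+MF against FB+MF it was 4 of 9 beside 28.4% (13.2% and 15.1%), and for FB+MF against MF 3 of 9 beside 4.84% (2.72% and 2.12%). The counts for CM+FB+MF against MF and against FB+MF include ADAM8, whose p-values in them are descriptive only. MMP12, MMP19 and MMP2 passed in all 3. For CM+FB+MF against MF the differences were 6.91 ± 0.30 for MMP12 (edgeR adjusted p = 1.22e-12), 2.31 ± 0.27 for MMP19 (adjusted p = 1.66e-06) and -4.29 ± 0.34 for MMP2 (adjusted p = 7.69e-09). The fibroblast marker sum in CM+FB+MF was 7.04-fold that in MF for digested cells and 0.799-fold for Biowires. Without SPARC the log2 difference of the Biowire sum was 1.51. The part of fibroblast RNA in the MMP2 difference was not tested. For ADAM8 the CM+FB+MF against MF difference was 9.56 ± 1.37 (adjusted p = 1.99e-05), or 9.14 to 10.39 when libraries were left out. It rests on digested libraries with 0 to 0.560 CPM, under the filter on low counts, so its p-value is descriptive only. TIMP1 differed by 0.90 ± 0.19 (adjusted p = 0.00101). TIMP2 and TIMP3 passed narrowly, at -0.44 ± 0.15 and -0.998 ± 0.37 (adjusted p = 0.0327 and 0.0457). These 2 calls were lost in 7 and 9 of 12 fits without 1 library, at adjusted p of 0.0519 to 0.0893 for TIMP2 and 0.0552 to 0.141 for TIMP3, and the TIMP3 call was also lost with DESeq2 (adjusted p = 0.107).

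The balance of a protease to its inhibitor was described as the log2 ratio of their counts, which is not corrected for length and was compared across groups only, with no test. MMP12 to TIMP1 was 5.00 ± 0.15 in Biowire CM+FB+MF, 0.98 ± 0.37 in Biowire FB+MF and -1.17 ± 0.62 in Biowire MF macrophages (SD, n = 3 each). In digested macrophages it was -0.47 ± 0.03, -0.43 ± 0.17 and -0.50 ± 0.03 in the same order of makeups, between the Biowire FB+MF and MF values. MMP9 to TIMP1 was 0.85 ± 0.69, 2.47 ± 0.66 and 2.47 ± 0.32 in Biowire CM+FB+MF, FB+MF and MF, against 3.28 to 3.39 in the digested groups. MMP14 to TIMP2 was -0.37, -0.39 and -0.79 in the Biowire groups, against -1.67 to -1.59 in the digested ones. MMP2 to TIMP2 was lowest in Biowire CM+FB+MF and in digested MF macrophages, at -5.12 and -5.05.

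**Figure D4:**
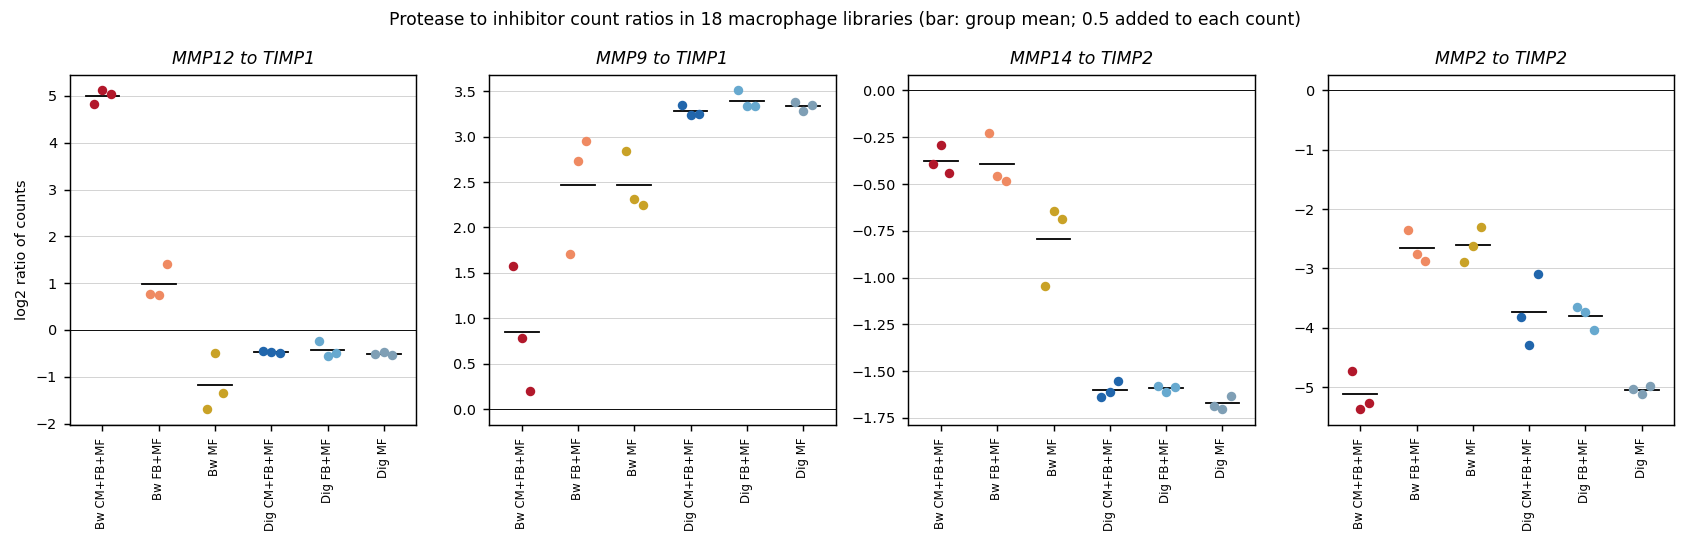
Log2 count ratios of 4 protease to inhibitor pairs in each library, by group, with bars at the group mean. The MMP12 to TIMP1 ratio of Biowire CM+FB+MF macrophages, 4.82 to 5.12, lies above that of every other group.

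Other genes of the pathway were taken from 4 lists, of 17 other MMPs, 10 ADAMs, 19 ADAMTS proteases and 9 further inhibitors and regulators. In Biowire CM+FB+MF against MF macrophages, 1 of 5 tested other MMPs, 4 of 7 ADAMs, 3 of 8 ADAMTS proteases and 1 of 6 regulators were higher, and 1 regulator was lower, beside 17.8% of all genes higher and 19.8% lower. ADAM28, a lymphocyte metalloprotease-disintegrin also found in other cells, averaged 102 CPM in CM+FB+MF and 2.35 CPM in MF macrophages, a difference of 5.31 ± 0.41 on the log2 scale (edgeR adjusted p = 2.66e-07). ADAM9, a widely expressed member, averaged 703 CPM in CM+FB+MF and 405 CPM in MF (0.79 ± 0.09, adjusted p = 1.35e-05). FURIN, the convertase that removes the propeptide of MMP14, averaged 241 CPM in CM+FB+MF and 120 CPM in MF (1.00 ± 0.11, adjusted p = 1.04e-05). A2M, a broad protease trap, was lower, at 1442 CPM in CM+FB+MF and 3394 CPM in MF (-1.25 ± 0.17, adjusted p = 5.53e-05). In CM+FB+MF against FB+MF the counts were 0 higher of 5, 2 of 7, 3 of 8 and 1 of 6, with 1 ADAMTS protease and 2 regulators lower, beside 16.4% of all genes higher and 19.1% lower.

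In Biowire FB+MF against MF the counts were 0 of 5, 1 of 7, 1 of 8 and 1 of 6 higher and 1 regulator lower, beside 4.03% of all genes higher and 2.14% lower. ADAM9 rose to 663 CPM in FB+MF, against 405 CPM in MF (0.74 ± 0.09, adjusted p = 0.000182 from edgeR), and ADAMTS15, a proteoglycan-cutting protease, to 30.3 CPM in FB+MF, against 5.79 CPM in MF (2.44 ± 0.30, adjusted p = 0.000181). In digested macrophages, CM+FB+MF against MF gave 1 of 4 other MMPs, 2 of 7 ADAMs, 3 of 9 ADAMTS proteases and 3 of 7 regulators higher and none lower, beside 2.69% of all genes higher and 0 of 12960 lower. MMP1 (interstitial collagenase) averaged 4.26 CPM in CM+FB+MF and 0.497 CPM in MF there (3.04 ± 0.39, adjusted p = 0.000676), beside fibroblast markers that were 7.04-fold higher (4.48-fold without CM+FB+MF replicate 3), whose part was not tested. The MMP1 mean in MF lay under the 0.926 CPM cut of the filter on low counts. MMP1 is included in the count, but its p-value is descriptive only.

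In cardiomyocytes, 1 of 8 members tested passed between CM+FB+MF and CM+FB Biowires, beside 12.7% of 16046 genes (6.79% higher, 5.88% lower). It was TIMP3, with 392, 346, 381 and 351 CPM in CM+FB+MF and 408, 444, 392 and 411 CPM in CM+FB cardiomyocytes, ranges that overlapped by the edge of 1 library each. The log2 fold change was -0.19 ± 0.06 (edgeR adjusted p = 0.0474). That call was lost in 6 of 8 fits without 1 library (adjusted p of 0.0595 to 0.125). MMP2 had 54.3, 41.1, 79.5 and 76.3 CPM in CM+FB+MF and 76.6, 49.4, 46.6 and 38.6 CPM in CM+FB cardiomyocytes, overlapping ranges that gave 0.23 ± 0.22 (adjusted p = 0.593). MMP14 averaged 77.8 CPM in CM+FB+MF and 87.4 CPM in CM+FB, TIMP1 92.5 CPM in CM+FB+MF and 84.4 CPM in CM+FB, and TIMP2 76.1 CPM in CM+FB+MF and 86.5 CPM in CM+FB, and none was called. Macrophage markers were 4.97-fold higher in CM+FB+MF cardiomyocytes (two-sided exact permutation test, p = 0.0286, which 4 against 4 libraries cannot go below). MMP12 reached at most 4 counts in those libraries, and how many counts macrophage RNA would bring was not tested.

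Among the other genes, 5 of 16 ADAMTS proteases were higher and 2 lower in CM+FB+MF cardiomyocytes, beside 6.79% of all genes higher and 5.88% lower. ADAMTS1, a secreted protease that cuts versican, averaged 22.5 CPM in CM+FB+MF and 86.3 CPM in CM+FB (-1.95 ± 0.08, edgeR adjusted p = 1.11e-08). ADAMTS19 was higher, at 31.1 CPM in CM+FB+MF and 15.3 CPM in CM+FB (1.00 ± 0.08, adjusted p = 4.51e-06), and ADAM19 lower, at 119 CPM in CM+FB+MF and 178 CPM in CM+FB (-0.60 ± 0.07, adjusted p = 5.63e-05). Beside the same shares, the other lists gave 1 of 9 other MMPs, 1 of 10 ADAMs and 1 of 9 regulators higher, and 1 ADAM and 1 regulator lower.

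The genes whose pattern was most like that of MMP7 and MMP12 were found by Pearson's r of log2(CPM + 1) over the 18 macrophage libraries. The search covered 11451 genes with a mean of at least 5 CPM in at least 1 of the 6 groups. The libraries fall into groups, which the points share, so r is a description. The 5 nearest to MMP7 were HS3ST2 (r = 0.973), CD36 (0.968), MCFD2 (0.945), NLN (0.944) and CANX (0.931). HS3ST2 averaged 792 CPM in Biowire FB+MF macrophages, against 131 to 197 CPM in the other 5 groups. The contrast was smaller for CANX, at 1073 against 772 to 848 CPM, and for MCFD2, at 133 against 88.6 to 93.6 CPM. The 5 nearest to MMP12 were ETV5 (r = 0.990), NRP1 (0.988), ENG (0.984), CSF2RA (0.983) and IL2RA (0.982). IL2RA averaged 113 CPM in Biowire CM+FB+MF, 9.002 CPM in Biowire FB+MF and 0.203 CPM in Biowire MF macrophages.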

How the data were processed

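Gene counts were deposited as 3 tables by the authors, for Biowire macrophages, digested macrophages and cardiomyocytes, made with STAR 2.7.9a, HTSeq 0.11.0 and hg19, per the submitters' processing notes. DESeq2 and R 4.3.2 are named there too. No source used here gives the counting's strand setting, although the library kit is stranded per the labels' protocols. Columns of the digested macrophages and of CM+FB+MF cardiomyocytes were matched to their group only, by table and name, and their replicate numbers are those of the columns. From the deposited counts, edgeR 4.0.16 (limma 3.58.1, R 4.3.3) fitted all groups of a table, with TMM scaling, filterByExpr (minimum count 10) and quasi-likelihood F tests, Benjamini-Hochberg adjusted over all genes. Biowire and digested macrophages were fitted together over the 17919 genes both tables hold. MMP7 passed the filter through 1 group, so it was left out of the calls, and its folds are ratios of pooled CPM. CPM used each library's table total and RPKM used exon lengths from GENCODE 29. DESeq2 1.42.0, RLE scaling, no filter, the replicate block, fits of the compared groups and leaving out each library were alternatives. All 30 replicate pairs differed by more than counting error (chi-square divided by its degrees of freedom, 2.39 to 37.6). Same-numbered libraries deviated together (correlation over 0.1 in each pair, 0.10 to 0.26) between Biowire CM+FB+MF and MF macrophages, and in no other compared groups in every pair. Some differently numbered libraries deviated together as well, so pairing by number is not settled. The fits were also run on simulated counts as a check, whose outcome is not given, and no result here rests on it. Summaries used Python 3.11.15, pandas 2.3.3, scipy 1.17.1 and matplotlib 3.10.9. The members and lists were chosen with earlier results of these data known. Pathway genes are named by the smallest p, up to 4 per list and comparison, and the 5 genes most like MMP7 or MMP12 by r.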

Additional observations from a re-analysis of the deposited data

Results flagged for a closer look

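In CM+FB+MF cardiomyocytes TIMP2 had 62.3 CPM in replicate 2, apart from 79.6 to 82.2 CPM in the other 3 libraries. In CM+FB cardiomyocytes MMP12 had 0 CPM in replicate 2, apart from 1 count in each of the other 3 libraries, a gap of 1 read. How often such gaps arise by chance was not tested.

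The effect of the makeup differed between Biowire and digested macrophages, by the test of the difference itself (edgeR, Biowire minus digested), for the following members. For FB+MF against MF the differences were 2.48 for MMP12, 1.20 for MMP19 and -1.34 for MMP2 (adjusted p = 1.06e-05, 0.0105 and 0.0156), and the MMP2 difference did not pass without digested FB+MF replicate 1 (adjusted p = 0.0510). For CM+FB+MF against MF they were 9.56 for ADAM8, 6.91 for MMP12, 2.31 for MMP19, 0.90 for TIMP1, -0.44 for TIMP2, -0.998 for TIMP3 and -4.29 for MMP2. For CM+FB+MF against FB+MF they were 6.598 for ADAM8, 4.43 for MMP12, 1.11 for MMP19 and -2.95 for MMP2 (adjusted p = 0.00149, 9.49e-10, 0.00341 and 1.57e-06). In digested macrophages ADAM8 was under the filter on low counts, so the p-values of its differences are descriptive only. Fibroblast marker sums were 7.04-fold and 5.16-fold higher in digested CM+FB+MF and FB+MF than in digested MF. Their part in the MMP2 differences was not tested.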

How the results depend on the processing

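Among member fold changes under alternatives that kept all libraries, 503 kept their direction and side of the threshold, 15 newly passed, 10 no longer passed and 1 changed sign, MMP14 in Biowire CM+FB+MF against MF (-0.012 without the filter), and the cause was not tested. Genes called between digested CM+FB+MF and FB+MF were 53 without the filter and 49 with DESeq2, against 31. Members called in digested CM+FB+MF against MF were 1 with RLE, without the filter, with the replicate block and with the compared groups alone, against 2. With the replicate block 7 members passed the Biowire minus digested difference of CM+FB+MF against FB+MF, against 4, and 0 members passed in cardiomyocytes, against 1. The replicate block also put MMP14 in Biowire FB+MF against MF, TIMP2 in Biowire CM+FB+MF against FB+MF, TIMP2 in Biowire against digested MF and TIMP1 in Biowire against digested CM+FB+MF under the threshold (adjusted p = 0.0445, 0.0210, 0.0365 and 0.0212). TIMP3 no longer passed in digested CM+FB+MF against MF, in the Biowire minus digested difference of CM+FB+MF against MF and in cardiomyocytes (adjusted p = 0.0897, 0.0667 and 0.107). Between Biowire CM+FB+MF and MF macrophages, where each same-numbered pair correlated over 0.1, the replicate block changed no member's call. In the other compared groups 1 of 3, 0 of 3, 0 of 3, 2 of 3, 0 of 3 and 1 of 4 pairs did (from -0.28 to 0.37). Differently numbered libraries reached such values too, as with 0.42 between CM+FB replicate 2 and CM+FB+MF replicate 1 of the cardiomyocytes. Biowire CM+FB+MF replicate 2 and MF replicate 3 correlated at 0.14. The correlations therefore neither show nor exclude pairing by number, and some numbers are only those of columns.

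Leaving out 1 library at a time, genes called were 549 to 844 in Biowire FB+MF against MF, 99 to 180 in digested FB+MF against MF and 19 to 72 in digested CM+FB+MF against FB+MF. Members called were 2 to 4 in Biowire FB+MF against MF, 4 to 7 in Biowire CM+FB+MF against FB+MF, 0 to 1 in digested FB+MF against MF, 1 to 2 in digested CM+FB+MF against MF, 4 to 7 in the difference of CM+FB+MF against FB+MF and 0 to 1 in cardiomyocytes. Fold changes whose sign turned ranged, in Biowire FB+MF against MF, from -0.27 to 0.014 (MMP2), -0.19 to 0.11 (TIMP2) and -0.12 to 0.22 (TIMP3), and in Biowire CM+FB+MF against MF from -0.069 to 0.12 (MMP14). In digested FB+MF against MF they ranged from -0.018 to 0.087 (MMP12), -0.064 to 0.0023 (TIMP1) and -0.021 to 0.028 (TIMP2), and in CM+FB+MF against MF from -0.026 to 0.034 (MMP9) and -0.00079 to 0.050 (TIMP2). In digested CM+FB+MF against FB+MF they ranged from -0.21 to 0.40 (MMP2), -0.047 to 0.016 (MMP9), -0.0058 to 0.048 (MMP14) and -0.056 to 0.055 (MMP19). Biowire against digested gave -0.43 to 0.82 for ADAM8 in MF and -0.028 to 0.32 for MMP19 in CM+FB+MF. The Biowire minus digested differences were -0.17 to 0.12 (TIMP2) and -0.31 to 0.042 (TIMP3) for FB+MF against MF and -0.15 to 0.024 (MMP14) for CM+FB+MF against MF. In cardiomyocytes the ranges were -0.33 to 0.12 (MMP14) and -0.24 to 0.21 (ADAM8). None of these was called with all libraries.

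Leaving out 1 library, chosen after seeing the data, gave fibroblast sums 4.48-fold to 8.86-fold higher in digested CM+FB+MF than in MF. Marker sums changed sign without their most abundant marker in 9 cases. Other blood cell markers gave 0.026, -0.074 and -0.10 in Biowire FB+MF against MF, CM+FB+MF against MF and CM+FB+MF against FB+MF, -0.037 and 0.019 in digested FB+MF against MF and CM+FB+MF against FB+MF, and 0.15 in cardiomyocytes. The fibroblast sum gave 1.51 in Biowire CM+FB+MF against MF, the cardiomyocyte sum 0.012 in digested FB+MF against MF and the macrophage sum -0.0096 in digested CM+FB+MF against FB+MF. With 5 added to the counts in place of 0.5, the MMP12 to TIMP1 ratio was -8.41 in CM+FB+MF and -8.67 in CM+FB cardiomyocytes, against -10.69 and -11.00, since MMP12 had 0 to 4 counts there. Depth limits MMP7 outside Biowire FB+MF and ADAM8 in digested macrophages.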
